A study of Saccharomyces cerevisiae with 4 samples.

Results

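The lithium response shared by both yeast cultures of the study was described from all 4 of its 4 arrays. The arrays at 60 min came from Saccharomyces cerevisiae transformants that overexpressed KIN28 or POG1 and had spent 60 min in 200 mM LiCl. The arrays at 0 min came from the KIN28 and POG1 transformants before LiCl was added. All cells grew at 25 °C to exponential phase in synthetic medium with 2% glucose that lacked uracil, leucine or both, and the labels do not say which culture had which medium. The series title places the work in rsp5 mutants, which have a defect in the ubiquitin ligase Rsp5, but the sample labels give no strain, RSP5 genotype, plasmid or promoter. Each culture has 1 array per time, so the replicates of the response are 2 cultures with different overexpressed genes. No array of cells kept for 60 min without LiCl was analysed here, so lithium and time in culture cannot be told apart.

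Lithium is a toxic analog of sodium that enters yeast through cation uptake systems, and it inhibits phosphatases that remove phosphate from nucleotide by-products and inositol phosphates. LiCl is also an osmotic load, to which yeast responds through the Hog1 kinase by making glycerol. Many stresses engage the general stress programme, in which the transcription factors Msn2 and Msn4 raise protective genes while genes for ribosome production fall. Kin28 is the kinase of the general transcription factor TFIIH that phosphorylates the tail of RNA polymerase II, and Pog1 is a nuclear protein linked to cell cycle start.

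Signals are given as multiples of the median of the same array over its 9335 probe sets, called array medians, and values under a floor of 0.5 array medians were set to that floor. Scaling each array to its own median hides any change in total messenger RNA, and in bulk cultures fewer cells of a kind and less RNA per cell cannot be told apart. The raw medians were 54.3 and 48.0 at 60 min in the KIN28 and POG1 cultures, against 41.8 and 60.6 at 0 min. Between 65.6% and 66.4% of probe sets lay above the floor on the 4 arrays. Of 10 control probe sets for ribosomal RNA, 7 were lower at 60 min in the mean of the cultures and 3 lay under the floor on all arrays, in RNA enriched for poly(A). A 25S probe set above the floor on all 4 arrays had 31.0 and 6.63 array medians at 60 min in the KIN28 and POG1 cultures, against 53.9 and 27.8 at 0 min. The widest change was in another 25S probe set, which had 0.882 and 0.642 array medians at 60 min in the KIN28 and POG1 cultures, against 91.9 and 73.2 at 0 min, and the part of these changes in the results was not tested.

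The overexpressed genes followed their labels. KIN28 had 64.9 array medians at 60 min and 71.9 at 0 min in the KIN28 culture, and 0.873 at 60 min and 1.16 at 0 min in the POG1 culture. POG1 had 75.1 at 60 min and 58.2 at 0 min in the POG1 culture, and lay at the floor at both times in the KIN28 culture. RSP5 had 5.97 and 5.33 at 60 min in the KIN28 and POG1 cultures, against 4.32 and 3.66 at 0 min, a mean log2 difference of 0.51 ± 0.25 (SE) that was not called (adjusted p = 0.166). A gene was called when the adjusted p of the time term was under 0.05 in limma's fit of culture plus time, whose time term is the mean of both within-culture differences.

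Of 5656 genes measured, 4840 were tested, and 4224 were above the floor on all 4 arrays. At 60 min, 635 tested genes were called higher (13.1%) and 756 lower (15.6%), together 28.7% of those tested. Every called gene had the same direction in both cultures, which the fit all but fixes, since a difference between the cultures widens its SE. At least 2-fold in both cultures, 326 genes were higher (6.74%) and 368 lower (7.6%). All of these were called, but under this fit changes of that size in both cultures are called by arithmetic. With 1 residual degree of freedom the calls lean on limma's pooled spread, whose prior weighed 8.42 degrees of freedom. No gene was called by limma without that moderation, without the floor or without the filter, where 705, 1522 and 1636 genes had an unadjusted p under 0.05, or with any single array (KIN28 or POG1, 60 min or 0 min) left out of a time-only fit, where 991 to 1264 did. Without scaling 258 genes were called higher and 291 lower. With 2 pairs, an exact two-sided permutation within cultures cannot give a p under 0.5.

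The 2 cultures gave similar changes across genes, a description in which genes are not independent replicates. Over the 4840 tested genes the differences between 60 min and 0 min had a Pearson correlation of 0.798 and a Spearman correlation of 0.728 between the cultures, which share no array. The direction was the same for 3662 genes (75.7%), and the changes lay within 2-fold of each other for 4359 (90.1%). Agreement in direction grew with size. Of genes above the floor on all arrays that changed by 1 to 2 log2 units in the KIN28 culture, 348 of 368 risers and 335 of 353 fallers went the same way in the POG1 culture. Beyond 2 log2 units all 107 and all 100 did. No gene was at least 2-fold in opposite directions.

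**Figure D1:**
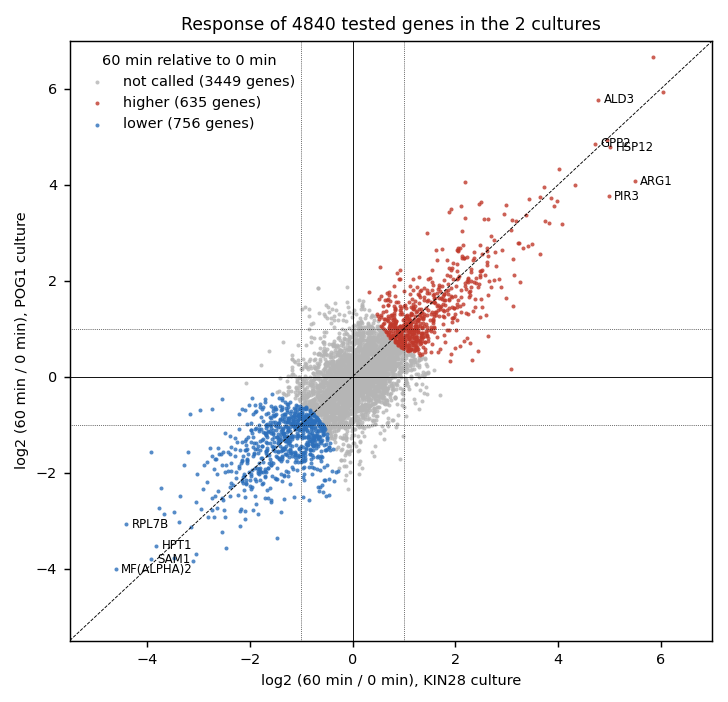
Log2 difference between 60 min and 0 min for each tested gene in the KIN28 culture (horizontal axis) and the POG1 culture (vertical axis), in log2 units, coloured by call, with dotted lines at 2-fold. The cloud runs along the diagonal, with a Pearson correlation of 0.798 over 4840 genes.

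Among genes above the floor on all 4 arrays, the 15 largest increases included genes of stress protection, glycerol and arginine synthesis. HSP12, a small heat shock protein that protects membranes, had 105 and 132 array medians at 60 min in the KIN28 and POG1 cultures, against 3.24 and 4.81 at 0 min. Its mean log2 difference was 4.90 ± 0.26 (SE, adjusted p = 8.53e-06). ALD3, an aldehyde dehydrogenase, had 17.4 and 33.7 at 60 min, against 0.63 and 0.618 at 0 min, or 38.8-fold. The values of both genes, chosen for the size of the change, stood far higher at 60 min than at 0 min in either culture. GPP2, the phosphatase of the last step of glycerol synthesis, had 23.1 and 39.6 at 60 min, against 0.884 and 1.36 at 0 min, or 27.5-fold. ARG1, which makes argininosuccinate, had 23.7 and 8.65 at 60 min, against 0.527 and 0.516 at 0 min. Its rise was the less even of these, with the POG1 culture lower at 60 min. PIR3, a cell wall protein, had 32.6 and 30.9 at 60 min, against 1.03 and 2.27 at 0 min. CTT1, the cytosolic catalase, had 11.1 and 16.6 at 60 min, against 0.552 and 1.05 at 0 min. The other 9 of these 15 were RTC3, MSC1, DDR2, ARO5, ARG7, SOL4, YRO2, SNZ1 and DCS2, with mean log2 differences between 3.50 and 4.17.

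Some genes rose out of the floor, so that only a lower bound of the change is known. NQM1, a transaldolase paralog, had 28.9 and 50.2 array medians at 60 min in the KIN28 and POG1 cultures and lay at the floor on both arrays at 0 min, which puts it at least 76.2-fold higher. HBT1, FMP45, TMT1 and RTC2 were also at the floor on both arrays at 0 min. Their increases had lower bounds of 63.2, 30.6, 14.1 and 9.09-fold, in that order. In the other direction RKI1, the ribose-5-phosphate isomerase, lay at the floor at 60 min, against 4.14 and 3.08 at 0 min, and was at least 7.14-fold lower.

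Among genes above the floor on all 4 arrays, the 15 largest decreases included a pheromone gene and genes of methyl donor synthesis, nucleotide synthesis and ribosomal proteins. MF(ALPHA)2, a gene for the alpha-factor pheromone, had 0.567 and 2.13 array medians at 60 min in the KIN28 and POG1 cultures, against 13.8 and 34.4 at 0 min, or 19.8-fold lower. SAM1, which makes S-adenosylmethionine, had 0.972 and 0.763 at 60 min, against 14.6 and 10.7 at 0 min. Its mean log2 difference was -3.86 ± 0.25 (SE, adjusted p = 2.95e-05). In both genes, chosen for the size of the change, the values at 60 min and 0 min did not overlap. HPT1, which salvages hypoxanthine and guanine, had 0.868 and 0.842 at 60 min, against 12.3 and 9.65 at 0 min. HXT2, a glucose transporter, had 2.19 and 6.31 at 60 min, against 29.1 and 31.5 at 0 min. CYC1, the main cytochrome c, had 1.55 and 1.08 at 60 min, against 8.97 and 10.2 at 0 min. Ribosomal proteins RPL7B, RPL22B, RPS26B, RPS22B, RPS9A and RPS28B were also among these 15, with mean log2 differences from -3.74 to -2.86. The 2 probe sets of RPL7B disagreed in size, at -4.88 and -2.60.

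**Figure D2:**
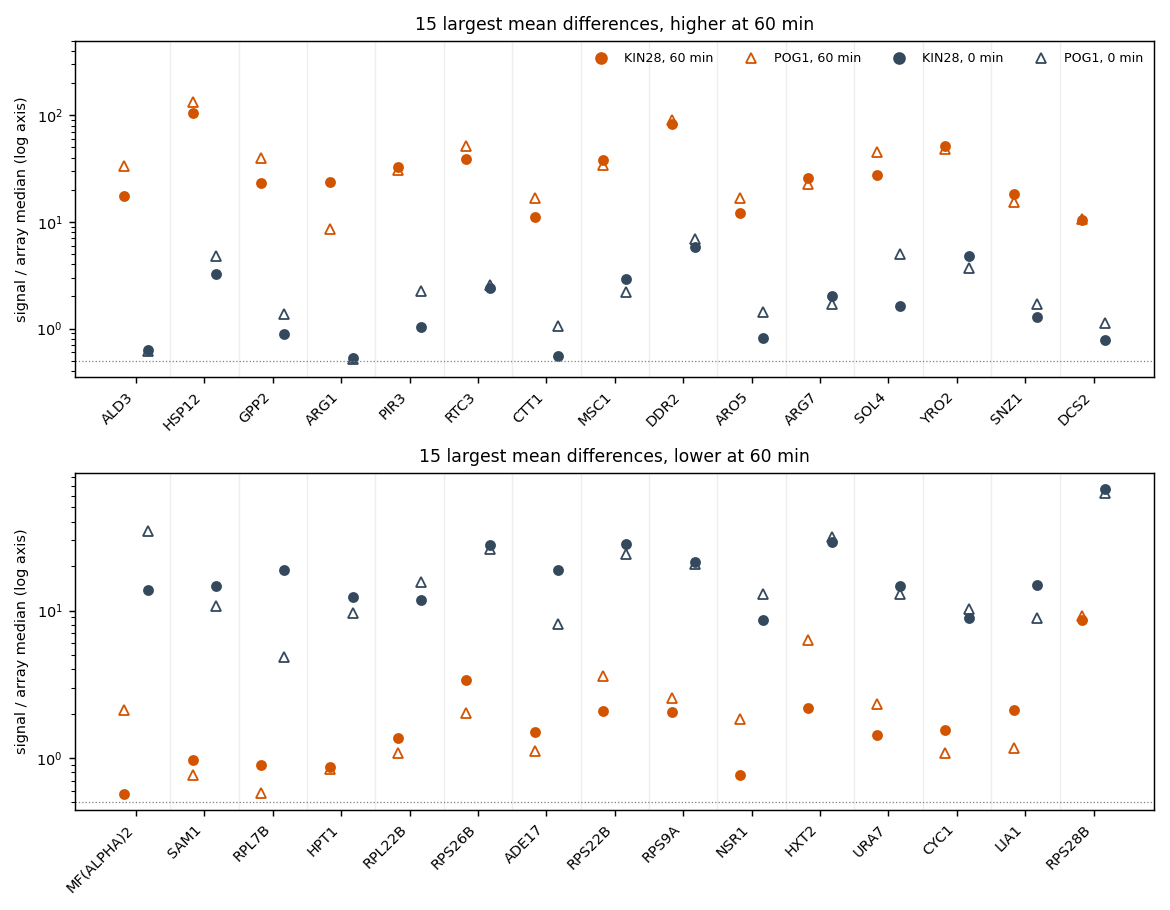
Signals of the 15 largest increases and the 15 largest decreases among genes above the floor on all 4 arrays, on each of the 4 arrays, in array medians on a log axis (filled circles KIN28, open triangles POG1, orange 60 min, dark blue 0 min, dotted line the floor). For each of these genes both arrays at 60 min lie on the same side of both arrays at 0 min. The genes were chosen by the size of this difference, so their separation is no separate result.

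Of 46 tested general stress genes of Msn2 and Msn4, 42 were called higher and 1 lower, beside 13.1% and 15.6% of all tested genes, and the median mean log2 difference over the 48 measured was 2.32, against 0.00 over all measured genes. Those named above (NQM1, ALD3, HSP12 and RTC3) lead the list. YHB1, a flavohemoglobin that detoxifies nitric oxide, was called lower at -1.18, but its probe sets disagreed, at -2.81 and 0.46. MSN4 itself had 3.71 and 2.26 array medians at 60 min in the KIN28 and POG1 cultures, against 1.34 and 1.15 at 0 min, and rose by 1.23 ± 0.27 (SE) on the log2 scale. MSN2 averaged a log2 difference of 0.42 ± 0.29 (SE) and was not called (adjusted p = 0.298).

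Of 10 tested genes of glycerol synthesis, uptake and export 6 were called higher and 4 were not called (median 0.97 over 12 measured), with GPP2 first. GCY1, a glycerol dehydrogenase, had 20.5 and 19.0 array medians at 60 min in the KIN28 and POG1 cultures, against 1.98 and 1.85 at 0 min. GPD1, the first committed enzyme of glycerol synthesis, had 58.1 and 93.9 at 60 min, against 13.7 and 14.6 at 0 min. Of 21 tested genes of the HOG pathway, which controls them, 1 was called higher (4.76%) and 3 lower (14.3%), with a median of 0.07. Both shares were below the 13.1% and 15.6% of all tested genes. STE11, a kinase kinase kinase shared with pheromone signalling, was the one that rose, while SSK22, SMP1 and SHO1 fell, SSK22 by 1.81 on the log2 scale, and all 3 lay at the floor on at least 1 array at 60 min. HOG1 averaged a log2 difference of -0.29 ± 0.25 (SE) and was not called (adjusted p = 0.421).

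In trehalose and glycogen synthesis 9 of 15 tested genes were called higher (60.0%), 5 were not called and 1, PGM1, was called lower (median 0.90). Of all tested genes 13.1% were called higher and 15.6% lower. TPS2, the trehalose phosphatase, had 37.4 and 47.3 array medians at 60 min in the KIN28 and POG1 cultures, against 8.20 and 4.77 at 0 min. In their breakdown 5 of 6 were called higher (median 1.66), among them GPH1, the glycogen phosphorylase, with 7.76 and 3.50 at 60 min, against 1.96 and 1.31 at 0 min. Of 11 pentose phosphate genes 5 were called higher (45.5%) and 4 lower (36.4%). NQM1, among the higher ones, is also counted with the general stress genes. ZWF1, the first enzyme of that path, was called higher at 1.12.

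Of 19 chaperone genes 5 were called higher (26.3%, median 0.32), beside 13.1% of all tested genes. Of 23 redox genes 6 were called higher (26.1%, median 0.52). HSP26, a small heat shock protein, had 11.4 and 9.54 array medians at 60 min in the KIN28 and POG1 cultures, against 1.44 and 0.797 at 0 min. SSA4, an inducible Hsp70, had 29.0 and 24.2 at 60 min, against 6.39 and 1.45 at 0 min. HSP104, the disaggregase, was not called, with a mean log2 difference of 0.53 ± 0.28 (SE, adjusted p = 0.191). In the proteasome 14 of 34 were called higher (41.2%, median 0.64), including RPT2, RPN9, RPN7 and RPN8, with mean log2 differences between 1.13 and 1.28. RPN4, the proteasome's transcription factor, was not called (0.25 ± 0.25, SE).

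Of 18 tested genes of Rsp5 and its adaptors, which bring membrane proteins to the ligase, 4 were called higher (22.2%) and 14 were not called. Their median was 0.32, and 13.1% of all tested genes were called higher. ECM21 had 4.15 and 3.30 array medians at 60 min in the KIN28 and POG1 cultures, against 1.14 and 1.09 at 0 min. BUL1, ROD1 and ROG3 had mean log2 differences between 0.95 and 1.04, and ROG3 lay at the floor at 0 min. Vacuolar proteases were called higher in 6 of 9 genes (66.7%) and autophagy genes in 7 of 16 (43.8%), with 1 lower. PEP4, the master vacuolar protease, had 44.6 and 60.8 at 60 min, against 20.3 and 24.9 at 0 min. ATG8, which coats the autophagosome membrane, had 15.2 and 12.5 at 60 min, against 4.43 and 5.33 at 0 min.

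In the small subunit processome 44 of 50 tested genes were called lower (88.0%, median -1.41), beside 15.6% of all tested genes. The other 6 were not called. Among large subunit assembly factors 53 of 59 were called lower (89.8%, median -1.52). RRP5, needed for processing of both subunit RNAs, had 2.04 and 1.34 array medians at 60 min in the KIN28 and POG1 cultures, against 10.7 and 7.48 at 0 min. NMD3, the export adaptor of the large subunit, had 0.972 and 1.05 at 60 min, against 6.43 and 6.06 at 0 min. RNA polymerase I and III subunits were called lower in 14 of 23 genes (60.9%), with RPA135 at -2.55. Of 7 tested RNA polymerase II subunits, with a median of -0.30, RPO21 alone was called. That share of 14.3% is near the 13.1% of all tested genes called higher. RPO21, the largest subunit, whose tail Kin28 phosphorylates, was higher, with 17.9 and 19.9 at 60 min, against 10.7 and 8.15 at 0 min.

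Ribosomal protein genes were called lower in 40 of 46 tested for the large subunit and 28 of 34 for the small subunit, with medians of -1.25 and -1.40. Probe sets of 1 gene exist for 47 of 81 large and 34 of 57 small subunit genes, and near-identical copies make single members uncertain. RPL31B had 16.6 and 10.97 array medians at 60 min in the KIN28 and POG1 cultures, against 92.1 and 83.6 at 0 min. Mitochondrial ribosomal proteins were called lower in 9 of 70 genes (12.9%), under the 15.6% of all tested genes, and higher in 1. Translation factors were called lower in 16 of 31, and cytosolic tRNA synthetases in 6 of 18.

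**Figure D3:**
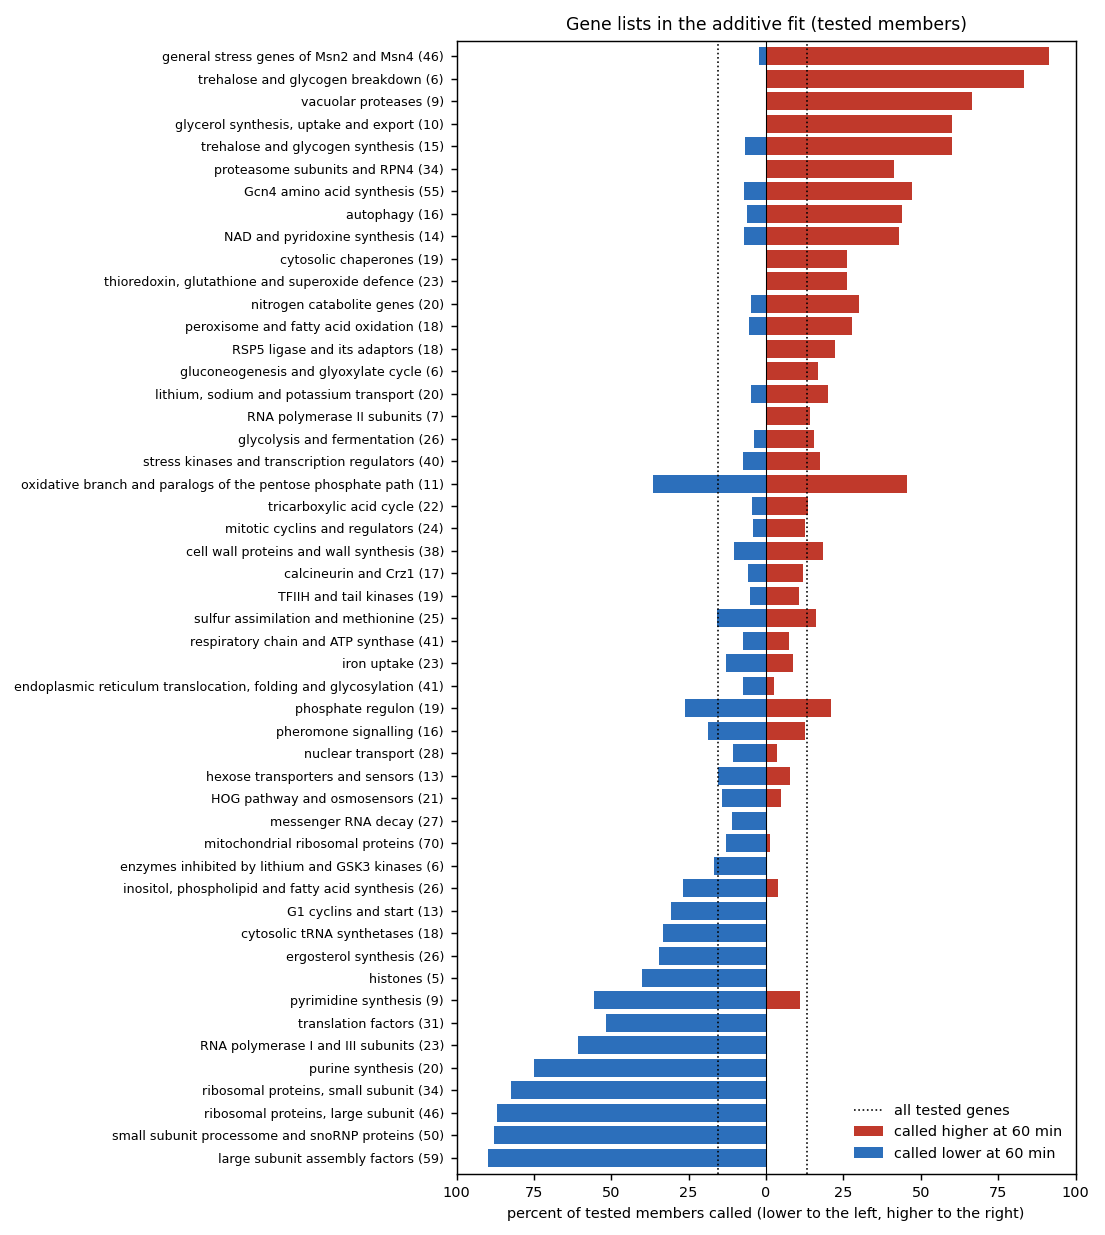
Percent of tested members of the gene lists called higher (to the right) and lower (to the left) at 60 min against 0 min, with dotted lines at the shares over all tested genes and the number tested in brackets. Stress genes (42 of 46 higher) stand at one end, and large subunit assembly factors (53 of 59 lower) at the other.

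Of 20 tested purine synthesis genes 15 were called lower (median -1.32), and of 9 pyrimidine synthesis genes 5 were called lower and 1, URA10, higher (median -0.89). GUA1, the GMP synthase, had 3.77 and 8.67 array medians at 60 min in the KIN28 and POG1 cultures, against 36.6 and 31.0 at 0 min. URA7, a CTP synthase, had 1.43 and 2.31 at 60 min, against 14.7 and 13.0 at 0 min. URA1, dihydroorotate dehydrogenase, fell unevenly, with 3.35 and 4.10 at 60 min, against 50.8 and 12.2 at 0 min.

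Of 55 tested amino acid genes under Gcn4 26 were called higher and 4 lower (median 0.47), with arginine, lysine and pyridoxine genes in front. ARG7, of ornithine synthesis, had 25.6 and 22.7 array medians at 60 min in the KIN28 and POG1 cultures, against 2.04 and 1.69 at 0 min. LYS1, the last enzyme of lysine synthesis, had 20.2 and 19.7 at 60 min, against 2.23 and 2.07 at 0 min. GCN4 itself was not called, at -0.69 ± 0.25 (SE, adjusted p = 0.0713). Of 25 tested sulfur and methionine genes 4 were called higher and 4 lower (16.0% each), near the 13.1% and 15.6% of all tested genes. SAM1, SAM2 and MET6 fell, while STR2, of cysteine conversion, had 10.3 and 10.3 at 60 min, against 2.36 and 1.85 at 0 min. The list of NAD and pyridoxine synthesis had 6 of 14 higher and 1 lower.

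Of 20 tested genes of lithium, sodium and potassium transport 4 were called higher (20%) and 1 lower (5.0%), beside 13.1% and 15.6% of all tested genes, with a median of 0.18. NHX1, the endosomal sodium and proton exchanger, had 4.27 and 3.67 array medians at 60 min in the KIN28 and POG1 cultures, against 2.09 and 2.24 at 0 min. PMA1, the plasma membrane proton pump, was not called, at 0.36 ± 0.25 (SE, adjusted p = 0.321). Of 6 tested enzymes that lithium inhibits and GSK3 kinases, only the kinase gene YGK3 was called, lower at -1.13, with both arrays at 60 min at the floor. Of 17 calcineurin genes 2 were called higher (11.8%) and 1 lower (5.88%). PMC1, the vacuolar calcium pump, had 3.35 and 4.65 at 60 min, against 2.17 and 2.02 at 0 min, and CRZ1, the transcription factor of the pathway, was not called (adjusted p = 0.999).

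Ergosterol genes were called lower in 9 of 26 (median -0.56), with ERG3, a sterol desaturase, at 8.22 and 5.66 array medians at 60 min in the KIN28 and POG1 cultures, against 34.9 and 32.3 at 0 min. Of 13 hexose transporter and sensor genes 1 was called higher (7.69%) and 2 lower (15.4%), beside 13.1% and 15.6% of all tested genes. The higher one, HXT1, a low-affinity glucose transporter, had 16.6 and 22.6 at 60 min, against 6.37 and 6.32 at 0 min, opposite to HXT2. HXT4, also lower, had log2 differences of -0.28 in the KIN28 culture and -1.97 in the POG1 culture. Of 23 iron uptake genes FRE1, FTR1 and FET3 fell (13.0%) and FRE2 and CCC2 rose (8.7%). In the cell wall 7 of 38 were called higher (18.4%) and 4 lower (10.5%), beside 13.1% and 15.6% of all tested genes. YGP1, a secreted stress glycoprotein, had 83.3 and 82.5 at 60 min, against 22.6 and 7.69 at 0 min.

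**Figure D4:**
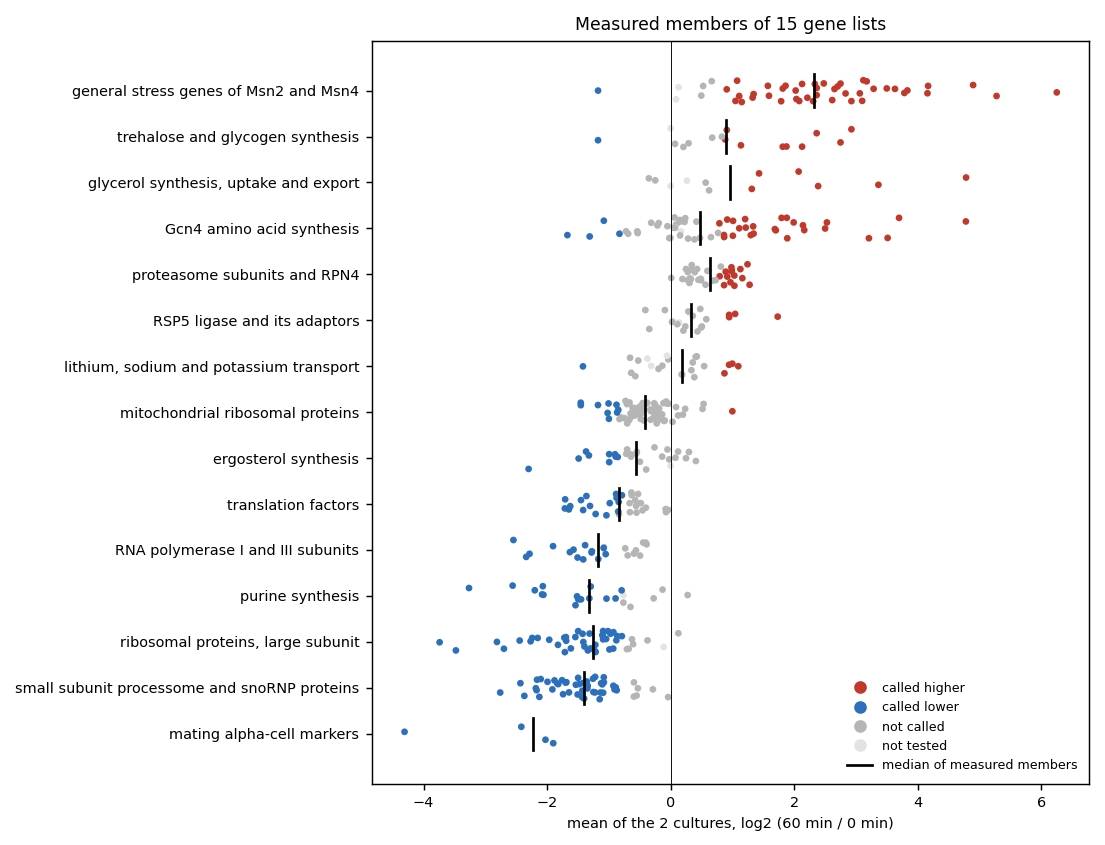
Mean log2 difference between 60 min and 0 min of each measured member of 15 gene lists, coloured by call, with a bar at each list's median. Stress genes lie around 2.32 and genes of the small subunit processome around -1.41.

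Higher calls in glycolysis and the citric acid cycle were near the 13.1% of all tested genes, and the other shares in glycolysis, the cycle and respiration lay below the 13.1% higher and 15.6% lower of all tested genes. Of 26 glycolysis and fermentation genes 4 were called higher (15.4%) and 1 lower (3.85%), with a median of 0.04. TDH1, a glyceraldehyde-3-phosphate dehydrogenase, had 48.1 and 74.0 array medians at 60 min in the KIN28 and POG1 cultures, against 11.8 and 16.1 at 0 min. ADH5, HXK1 and GLK1 rose too, while ADH3, the mitochondrial alcohol dehydrogenase, fell by 1.43 on the log2 scale. In the citric acid cycle 3 of 22 were called higher (13.6%) and 1 lower (4.55%). CIT2, the peroxisomal citrate synthase, had 18.4 and 15.3 at 60 min, against 3.38 and 4.17 at 0 min. Of 41 respiratory genes 7.32% were called in each direction, 3 higher, CYC7, COX5B and HAP5, and 3 lower, CYC1, NDE1 and ATP17. CYC7 and COX5B encode forms used at low oxygen. Of 18 peroxisome and fatty acid oxidation genes 5 were called higher (27.8%) and 1 lower (5.56%). The lower one, PEX11, promotes peroxisome division.

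Of 19 phosphate genes 4 were called higher (21.1%) and 5 lower (26.3%), beside 13.1% and 15.6% of all tested genes. PHO90, a low-affinity phosphate transporter, had 3.49 and 2.35 array medians at 60 min in the KIN28 and POG1 cultures, against 15.6 and 7.99 at 0 min. PHO8, the vacuolar alkaline phosphatase, had 5.15 and 4.58 at 60 min, against 1.73 and 2.05 at 0 min. One of the higher calls is GPP2, the glycerol phosphatase, which the list also holds. Of 20 nitrogen catabolite genes 6 were called higher (30.0%) and 1 lower (5.0%). DIP5, an acidic amino acid permease, rose by 1.61 ± 0.26 (SE) on the log2 scale, while CAR2, which breaks down ornithine, fell by 1.73, opposite to the synthesis genes ARG1 and ARG7.

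In inositol, phospholipid and fatty acid synthesis 7 of 26 genes were called lower and 1 higher (median 0.09). ITR1, the main inositol transporter, had 3.65 and 3.93 array medians at 60 min in the KIN28 and POG1 cultures, against 7.89 and 11.9 at 0 min. ACC1, which commits carbon to fatty acids, fell by 1.29 on the log2 scale, and ELO1, a fatty acid elongase, rose by 0.98. Of 41 genes of the endoplasmic reticulum 3 were called lower (7.32%) and 1 higher (2.44%), below the 15.6% and 13.1% of all tested genes. The lower ones, PMT4, PMT1 and ALG5, act in protein glycosylation, and the higher one, HRD1, is a ubiquitin ligase for misfolded proteins. Of 27 genes of messenger RNA decay 3 were called lower (11.1%), also below the share of all tested genes. They were the exosome genes RRP6 and RRP43 and SKI3.

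Genes of alpha mating type cells fell, all 4 of 4 tested. STE3, the receptor for a-factor, had 1.62 and 0.766 array medians at 60 min in the KIN28 and POG1 cultures, against 6.38 and 3.23 at 0 min. MF(ALPHA)1, the main alpha-factor gene, had 19.4 and 5.32 at 60 min, against 53.9 and 54.6 at 0 min. Of 7 markers of a cells only 2 were tested, and MFA1, BAR1 and AGA2 lay below the floor on all arrays. G1 genes were called lower in 4 of 13, among them CLN2, a G1 cyclin, at -1.27. CLB2, a mitotic cyclin, was called higher at 1.03. Among 24 mitotic regulators 3 were called higher (12.5%) and 1 lower (4.17%), below the 13.1% and 15.6% of all tested genes. Of 5 histone genes tested 2 were called lower, HTB2, a histone H2B gene, at -2.10 and HHO1, the linker histone, at -1.38. Of 16 pheromone signalling genes 3 were called lower (18.8%) and 2 higher (12.5%), near the shares of all tested genes. FAR1, which arrests the cycle in response to pheromone, had 1.32 and 0.573 at 60 min, against 4.68 and 1.56 at 0 min.

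Among 40 tested regulators 7 were called higher (17.5%) and 3 lower (7.5%), beside 13.1% and 15.6% of all tested genes. HSF1, the heat shock factor, had 2.81 and 3.32 array medians at 60 min in the KIN28 and POG1 cultures, against 1.19 and 1.30 at 0 min. TOD6, a repressor of ribosome assembly genes, lay at the floor at 60 min, against 1.39 and 1.19 at 0 min. Of 19 genes of TFIIH and the tail kinases 2 were called higher (10.5%) and 1 lower (5.26%), both below the shares of all tested genes. The higher ones were the TFIIH subunits SSL2 and SSL1, and the lower one the tail phosphatase FCP1. Of 28 nuclear transport genes 1 was called higher (3.57%) and 3 lower (10.7%), also below the shares of all tested genes. The higher one, GSP2, a Ran GTPase, had 9.43 and 13.1 at 60 min, against 2.16 and 1.60 at 0 min. Among the lower ones the importin KAP123 fell by 2.20 on the log2 scale.

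Of 63 listed paralog pairs 51 had both genes tested, and 27 of these differed in their changes by at least 2-fold in both cultures. In 5 pairs the genes were called in opposite directions: CYC7 and CYC1, SOL4 and SOL3, PGM2 and PGM1, URA10 and URA5, GND2 and GND1. URA10 and GND2 each lay at the floor on 1 array at 0 min. CYC7, the cytochrome c of low oxygen, had 12.7 and 15.1 array medians at 60 min in the KIN28 and POG1 cultures, against 1.498 and 1.82 at 0 min, opposite to CYC1. PGM2, the major phosphoglucomutase, had 24.2 and 30.3 at 60 min, against 4.09 and 3.10 at 0 min, while PGM1 had 3.77 and 3.07 at 60 min, against 7.96 and 7.43 at 0 min. ADE17 fell by 3.27 on the log2 scale and its paralog ADE16 was not called, at 0.28. TAL1, the paralog of NQM1, was not called, at -0.04. ALD3 and ALD2 are near-identical neighbours, so their split is uncertain.

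**Figure D5:**
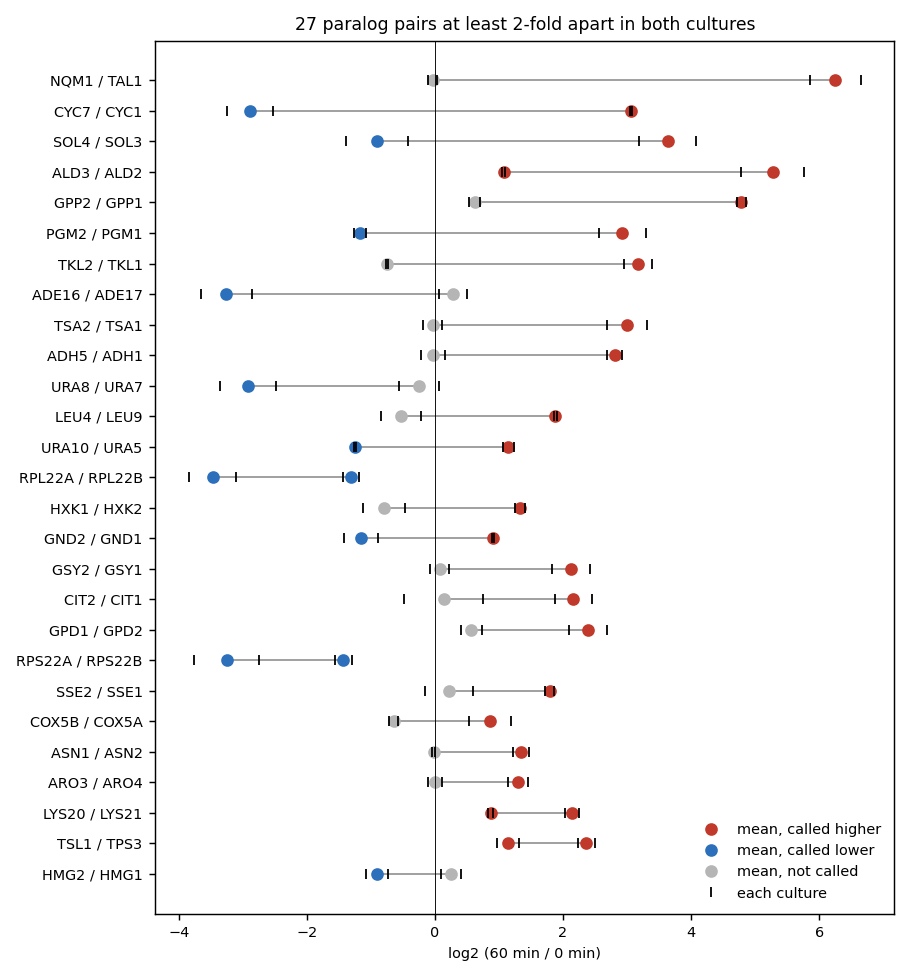
Mean log2 difference between 60 min and 0 min for both genes of the 27 paralog pairs that differed by at least 2-fold in both cultures. Dots are means, coloured by call, and ticks are the cultures. CYC7 and CYC1 lie 5.95 log2 units apart, and the gap of NQM1 and TAL1 is at least 6.29, since NQM1 lay at the floor at 0 min.

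A few genes were least shared, chosen after their values were seen. Most named coding genes with the widest gaps between cultures, above the floor on all 4 arrays, have locus names of chromosome XIV. PMS1, PEX17, SLM2, APJ1, DBP2, BIO4, EMW1 and MRX7 had the lower log2 difference in the KIN28 culture, ARC35 and TOM7 in the POG1 culture. TIR3 and URA1, also among the widest gaps, lie on other chromosomes. The cause was not tested. SLM2, of membrane lipid signalling, had 0.721 and 2.04 array medians at 60 min in the KIN28 and POG1 cultures, against 1.43 and 0.774 at 0 min. TIR3, a cell wall protein, had 1.58 and 0.939 at 60 min, against 0.828 and 3.09 at 0 min. Both had differences of opposite sign in the cultures and were not called. DBP2, an RNA helicase, was called lower although its log2 differences were -2.97 in the KIN28 culture and -0.70 in the POG1 culture.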

How the data were processed

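Poly(A)-enriched RNA was measured on 4 Affymetrix yeast genome arrays, each hybridized with 15 µg of biotin-labelled cRNA at 45 °C for 18 h, per the series' design text. The deposited intensity of each probe set is linear. The authors also deposited a ratio, the intensity over the array's median. The step from scan to intensity is not given in the sources used here.

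Each array's intensity was divided by its median over all 9335 probe sets, values under a floor of 0.5 medians were set to it, and log2 was taken. The 6504 probe sets that the platform annotation gives 1 gene were averaged within genes, to 5656 genes. Sets with a suffix on the name, which may cross-hybridize, were kept for 211 genes measured by nothing else. The 328 probe sets with several genes and 2443 with none were left out. The 4840 genes above the floor on both arrays of at least 1 time were tested.

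The fit was limma's lmFit and eBayes with culture and time as terms (1 residual degree of freedom, 8.42 prior degrees of freedom). The coefficient of time is the mean of the 2 within-culture differences, its SE is moderated, and p-values are two-sided with Benjamini-Hochberg adjustment. A gene was called at an adjusted p under 0.05. The pairing comes from the overexpressed gene in the sample titles. The number of arrays limits the precision.

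The comparison, gene lists and paralog pairs were chosen with earlier results of these data known. Some genes are in more than 1 list, so the counts of the lists are not independent. Named genes were KIN28, POG1, RSP5, the 15 largest called changes per direction above the floor on all 4 arrays, 5 bounds per direction, up to 4 called members per list and direction (fewer are printed for some lists), and the 8 widest paralog pairs. HOG1, MSN2, MSN4, GCN4, CRZ1, RPN4, PMA1, HSP104, URA5, GND2, SLM2, TIR3 and DBP2 were added after their values were seen. So were the other genes named for wide gaps between the cultures on chromosome XIV. The rule also asked for genes at least 2-fold in opposite directions in the cultures, and there were 0. Alternatives in scaling, column, floor, filter, probe sets, variance, block and thresholds were recomputed, and probe sets described with the gene's own reading frame were added after seeing the data. 1 gene list is not reported here. The fit was also run on simulated data drawn from limma's own model of the spread, which cannot show whether these data follow that model. The tools were limma 3.58.1 in R 4.3.3, with pandas 2.3.3, numpy 2.4.6, scipy 1.17.1 and matplotlib 3.10.9 in Python 3.11.15.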

Additional observations from a re-analysis of the deposited data

Results flagged for a closer look

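A 25S ribosomal RNA control probe set, outside the genes tested, changed with time in both cultures. Its mean log2 difference between 60 min and 0 min was -6.77, with 0.882 and 0.642 array medians at 60 min in the KIN28 and POG1 cultures, against 91.9 and 73.2 at 0 min.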

How the results depend on the processing

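The calls depend on the pooled spread and on scaling. With 635 genes called higher and 756 lower in the additive fit, no scaling gave 258 and 291, scaling to hybridization controls 249 and 225, and the fit with no replicate block 394 and 473, all of them among the 635 and 756. No floor, no filter and no variance moderation gave 0 and 0, where 1522, 1636 and 705 genes had an unadjusted p under 0.05 in limma. Leaving out 1 array in a time-only fit gave 0 to 0. An adjusted p under 0.01 gave 323 and 387. At least 1.5-fold in both cultures gave 665 and 780 genes, and 3-fold 153 and 137, against 326 and 368 at 2-fold. Without replicate 1 the count at 2-fold was 498 and 677, and without replicate 2 it was 552 and 550. Other scalings, columns, floors, filters, probe sets and variance settings gave 445 to 673 higher and 505 to 819 lower. The cause of each change was not tested, except that single-culture counts need 1 culture only. Of 241 named called genes 0 reversed, but 109 lost their call without scaling, 120 with hybridization controls, 62 with no replicate block, 58 with the floor at the 20th percentile, and all 241 where no gene was called. Leaving out suffixed probe sets covered 236 of them and requiring all 4 arrays 208. The number of arrays limits all of these values.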
